A study of Homo sapiens with 9 samples.

Results

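The 9 genes described here encode heat shock chaperones: the HSP70 genes HSPA1A, HSPA1B, HSPA1L, HSPA2, HSPA6 and HSPA8, the HSP110 gene HSPH1, the HSP40 gene DNAJB1 and the small heat shock protein gene HSPB1. They were taken by name, as every probe that is not a control and whose gene name on the array is one of these 9, which gave 16 of 50599 probes and 9 of 36337 gene names. The set was selected on measured values, since HSPA1A is among the genes with the largest rise on the 5-aza-dC array, so values of that array beside siCONT are given below as a description, with no test. RKO, a colorectal cancer cell line, was measured on 9 Agilent 1-colour expression arrays. A control siRNA (siCONT) or one against UHRF1 (siUHRF1) acted for 72 h, after which cells were given ethanol as mock or 300 nM trichostatin A (TSA) for 24 h, so that all 4 siRNA groups were harvested 96 h after transfection, with 2 arrays each. The fifth condition, 1 array, was RKO cells without any siRNA, exposed for 72 h to the nucleoside analogue 5-aza-dC (decitabine) at 1 µM. In both siUHRF1 groups replicate 1 received the siRNA siUHRF1-1 and replicate 2 the siRNA siUHRF1-2, and all cells were of 1 line. The siUHRF1 arrays of a group were thus separate transfections, whereas nothing in the labels says so of the siCONT arrays, where the spread may be technical. The median absolute difference between replicates was 0.07 in siCONT, 0.08 in siCONT + TSA, 0.26 in siUHRF1 and 0.19 in siUHRF1 + TSA on the log2 scale, and p-values measure only the spread between these arrays.

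HSP70 proteins bind unfolded stretches of other proteins in a cycle of ATP binding and hydrolysis. HSP40 proteins such as DNAJB1 bring clients to HSP70 and start hydrolysis, HSP110 proteins such as HSPH1 exchange the nucleotide, and small heat shock proteins such as HSPB1 hold unfolded clients without ATP. In stressed cells the heat shock factor HSF1 binds inverted repeats of the motif GAA, the heat shock elements, ahead of many of these genes, while HSPA8 is made constitutively in most cells. UHRF1 brings the DNA methyltransferase DNMT1 to newly copied DNA, TSA inhibits histone deacetylases, and 5-aza-dC is built into DNA and traps DNA methyltransferases.

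Signals are given as log2 values relative to the 75th percentile of the same array, so that 0 is the level of that percentile. A probe was above background where at least 1 of every 2 of its kept spots was well above background, and it was tested where it was so on both arrays of at least 1 siRNA group. This held for 7 of the 9 genes and 13 of their 16 probes, whereas HSPA1L, HSPA2 and 1 probe of HSPA6 were not above background on enough siRNA arrays and were not tested. A gene was counted by its probe of highest mean signal. A change was called at an adjusted p below 0.05 in limma, with adjustment over all 23703 probes tested. The 75th percentile of the signal lay between 245 and 338 on the siRNA arrays and was 822 on the 5-aza-dC array, and between 43.7% and 46.6% of probes were above background on the siRNA arrays against 51.6% on the 5-aza-dC array. For 5-aza-dC, whose array had its own slide and scan, treatment, slide and scan cannot be told apart. Unlike siCONT, its cells had no siRNA and no 24 h of mock. They had 72 h of drug, where siCONT was harvested 96 h after transfection, and these differences cannot be told apart from the drug. On the slide of the siRNA arrays, row went with TSA and column with the siRNA, and these cannot be told apart either. The signal of UHRF1, the targeted gene, changed by -2.47 (log2) with depletion alone (limma, adjusted p = 0.00238) and by -3.35 with depletion under TSA (adjusted p = 0.000132). Of the epithelial markers of colon, KRT8, KRT18, CDX1 and CDX2 were above background on all 8 siRNA arrays and the 5-aza-dC array. EPCAM, KRT19 and KRT20 were so on the 5-aza-dC array and on 1 or 2 siRNA arrays, and CDH1 and VIL1 on no array.

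HSPA1A and HSPA1B encode nearly the same stress-inducible HSP70 protein, and HSPA1L, a relative expressed mainly in testis, lies beside HSPA1A in the opposite direction. The stretches upstream of the HSPA1A and HSPA1B starts are shown because the genes are so alike there and their probes differed so in detection on the arrays. They come from RefSeq on GRCh38.p14 and run 5′ to 3′, with capitals for the heat shock element pair (GAANNTTC or TTCNNGAA), the CCAAT box on either strand (CCAAT or ATTGG) and TATAAA.
HSPA1A upstream of the start, chr6:31815293-31815542, + strand: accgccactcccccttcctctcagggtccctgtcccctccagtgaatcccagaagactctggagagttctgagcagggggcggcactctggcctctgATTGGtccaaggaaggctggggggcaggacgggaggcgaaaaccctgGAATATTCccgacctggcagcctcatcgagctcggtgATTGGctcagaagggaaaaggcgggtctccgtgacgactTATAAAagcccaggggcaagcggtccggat
HSPA1B upstream of the start, chr6:31827488-31827737, + strand: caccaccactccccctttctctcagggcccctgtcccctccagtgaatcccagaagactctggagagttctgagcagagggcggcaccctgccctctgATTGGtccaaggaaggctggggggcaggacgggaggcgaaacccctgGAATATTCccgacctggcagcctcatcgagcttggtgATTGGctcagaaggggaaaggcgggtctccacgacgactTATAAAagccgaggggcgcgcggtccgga
Aligned end to end, the stretches match at 235 positions, differ at 14 and have 2 gap positions. In each of them the capitals spell, in the same order, ATTGG, the pair GAATATTC, ATTGG and TATAAA, with the pair from -106 to -99 in HSPA1A and from -105 to -98 in HSPA1B. The probes of the genes share no run longer than 7 bases with each other. Neither was compared with the RNA of the other gene, so whether it also binds that RNA was not tested. Their first 30 bases are given with hg19 positions from the array files.
HSPA1A probe, first bases, chr6:31785491-31785520, + strand: gagcttcaagactttgcatttcctagtatt
HSPA1B probe, first bases, chr6:31797870-31797899, + strand: gtttcgttccctttaaatgaatcaacactg

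**Figure D1:**
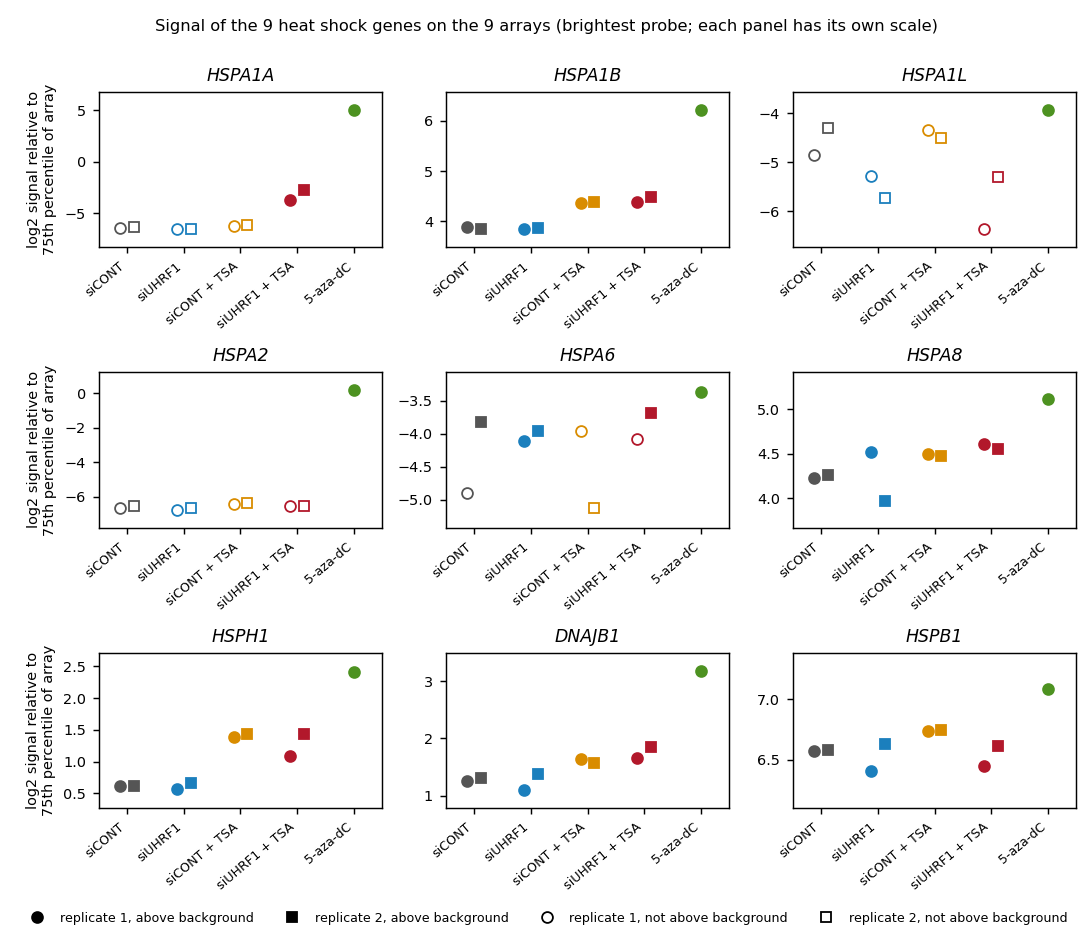
The 9 panels plot the log2 signal relative to the 75th percentile of the array (vertical axis) by group (horizontal axis) for the brightest probe of each gene, with circles for replicate 1, squares for replicate 2 and filled marks for probes above background. HSPA1A is above background on the 2 siUHRF1 + TSA arrays and the 5-aza-dC array, HSPA2 on the 5-aza-dC array, and HSPA1B is above background on all 9 arrays.

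HSPA1A was not above background on 6 of the 8 siRNA arrays and was above it on both arrays of UHRF1 depletion with TSA. Its signal was -6.45 and -6.34 in siCONT, -6.56 and -6.49 in siUHRF1, -6.28 and -6.18 in siCONT + TSA, -3.68 and -2.78 in siUHRF1 + TSA, and 5.03 on the 5-aza-dC array. The siUHRF1 + TSA arrays stood above all other siRNA arrays, and no other siRNA group was above background. In limma the change of siUHRF1 + TSA was 3.01 (SE 0.272, adjusted p = 0.00304) over siCONT + TSA and 3.17 (SE 0.272, adjusted p = 0.00125) over siCONT. HSPA1A entered this fit through siUHRF1 + TSA alone, the group where it is high, so these p-values come after a choice on the same contrast. With no filter on dim probes the adjusted p was 0.0145 over siCONT + TSA and 0.00644 over siCONT. These p-values are not free of choice either. The set was chosen on a rise of HSPA1A over the same siCONT arrays, and the control values remain background signals. Since the control groups were below background, the changes are given as bounds. HSPA1A was at least 1.98-fold higher than in siCONT + TSA, at least 2.14-fold higher than in siCONT and at least 2.38-fold higher than in siUHRF1, the last without a test. A bound puts each control array at the higher of the probe itself and the dimmest probe above background on that array. It is a convention and not a strict limit, since a probe brighter than that dimmest probe can still be not above background. On siCONT + TSA replicate 1 the dimmest was at -4.21, and a probe of HSPA6 at -3.96 was not above background. In RNA from many cells, a few cells with much HSPA1A RNA and many cells with little cannot be told apart. With normexp background correction the changes were 0.01 over siCONT + TSA (adjusted p = 0.983) and 0.68 over siCONT (adjusted p = 0.205), neither called. In that correction the fitted background of siCONT + TSA replicate 2 was -100.7, against 2.8 to 16.44 on the other arrays. With local backgrounds capped it was 5.256. The changes were then 0.53 (adjusted p = 0.0881) and 0.68 (adjusted p = 0.00888). The bounds were then at least 1.29-fold over siCONT + TSA, at least 1.28-fold over siCONT and at least 1.37-fold over siUHRF1. Over 19 alternatives the adjusted p ranged from 0.00110 to 0.983 over siCONT + TSA and from 0.000715 to 0.205 over siCONT.

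The probe of HSPA1A is printed 10 times on every array, which gives a view of its signal within an array. On the 6 siRNA arrays other than siUHRF1 + TSA, the highest of 60 spots was at -5.97 and 0 were above background. On siUHRF1 + TSA the lowest of 20 spots was at -4.33, and 18 were above background, 8 of 10 on replicate 1 and 10 of 10 on replicate 2. The spots of the siUHRF1 + TSA arrays did not overlap those of the other siRNA arrays. Since the latter were all background signals, this repeats the detection already given and is only a description. The arrays carried siUHRF1-1 (-3.68) and siUHRF1-2 (-2.78), and with 1 array per siRNA the siRNAs were not compared by a test. These 10 spots share 1 hybridization and are not replicates of the condition.

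**Figure D2:**
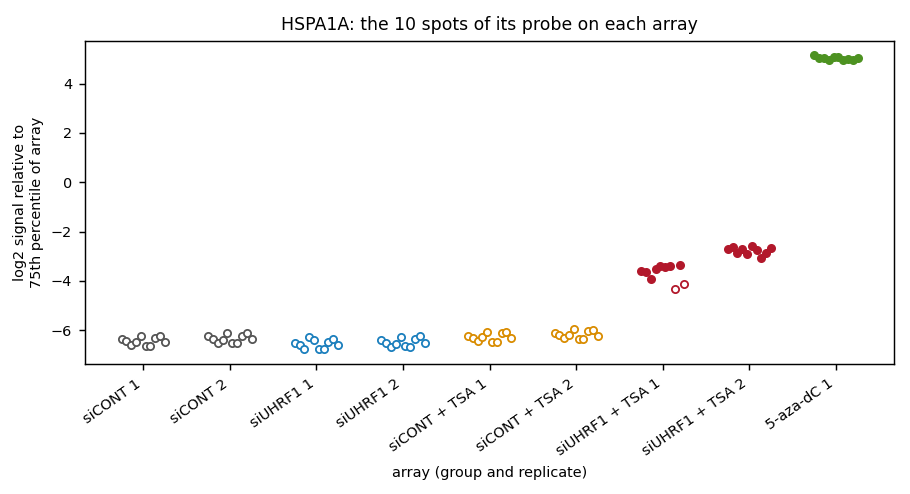
Each point is 1 of the 10 spots of the HSPA1A probe, with the log2 signal relative to the 75th percentile on the vertical axis, the 9 arrays along the horizontal axis and filled points for spots well above background. All 60 spots of the other 6 siRNA arrays lie at or below -5.97, and the 20 spots of siUHRF1 + TSA at or above -4.33.

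Cell type markers moved with the same arrays. Of the 6 fibroblast markers, 5 were above background on each siUHRF1 + TSA array against 1 to 3 on the other siRNA arrays, and the log2 of their summed signal was -0.09 and 0.23 against -1.98 to -0.75, while COL3A1 was above background on no array. The log2 sum of the 3 endothelial markers was -0.55 and -0.87 on siUHRF1 + TSA, with 2 of 3 above background, against -2.67 to -2.03 on the other siRNA arrays, with 1 or 2 of 3, and PECAM1 was above background on no array. For the 5 leukocyte markers it was 2.53 and 1.14, with 3 and 2 above background, against 1.16 to 2.06, with 1 to 3. For the 9 colorectal epithelial markers it was 6.56 and 6.27, with 6 and 5 above background, against 5.66 to 5.97, with 4 or 5. Their part in the result for HSPA1A was not tested.

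For the change by depletion in TSA cells minus that in mock cells, the difference between the effects, HSPA1A gave 3.14 (SE 0.384) with an adjusted p of 0.0434 in limma, and the other 6 genes tested were not called. Of the 4 groups in this difference, siCONT, siUHRF1 and siCONT + TSA were not above background, so the value stands on background signals, has no bound and is given as a description. With no filter on dim probes the adjusted p was 0.104. Over all probes tested, 0.359% were called higher and 0.0211% lower in this test. HSPA1A was called in 7 of 18 alternatives, with adjusted p from 0.00534 to 0.976. The call was lost on leaving out either array of siCONT, of siUHRF1 or of siCONT + TSA, and the adjusted p was 0.00534 without siUHRF1 + TSA replicate 1 and 0.00549 without siUHRF1 + TSA replicate 2.

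The pattern of HSPA1A was shared by few probes. Of 50599 probes, 308 (0.609%) were detected, that is above background, on the pair of siUHRF1 + TSA arrays and on no other siRNA array, and the 5-aza-dC array had 237 of these (76.9%) above background. The 5 gene names whose signal over the 8 siRNA arrays was most like that of HSPA1A were ENST00000446649, PXDN (a peroxidase of the extracellular matrix), MAGEC2 (a cancer-testis antigen), NEFH (the heavy neurofilament chain) and TMEM139, with Pearson r from 0.9995 down to 0.9964 over 8 arrays. The names depended on the background correction, since 1 of the 5 was shared with normexp and 0 with capped normexp, against 5 with each other scaling. In this correlation the 2 siUHRF1 + TSA arrays carry the signal and all 8 arrays share 1 slide. On the 5-aza-dC array, MAGEC2 stood 8.49, NEFH 8.14, PXDN 6.22 and ENST00000446649 3.91 above the mean of siCONT on the log2 scale, and TMEM139 was not above background. Detection of these genes in siCONT is not given here, so the values are differences that may be over background signal, and not bounds.

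HSPA1B, above background on every array, rose with TSA, also in siCONT + TSA, where HSPA1A was not above background. Its signal was 3.89 and 3.84 in siCONT, 3.84 and 3.87 in siUHRF1, 4.36 and 4.37 in siCONT + TSA, 4.39 and 4.48 in siUHRF1 + TSA, and 6.22 on the 5-aza-dC array. All 4 TSA arrays lay above all 4 mock arrays, with siCONT and siUHRF1 overlapping. The change was 0.50 (SE 0.089, adjusted p = 0.0241) in siCONT + TSA against siCONT, 0.57 (adjusted p = 0.00788) in siUHRF1 + TSA against siCONT and 0.07 (adjusted p = 0.748) for depletion under TSA. The call with TSA alone was made in 12 of 20 alternatives, with adjusted p from 0.00634 to 0.369.

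HSPA1L and HSPA2, the testis-expressed members, were not above background on any of the 8 siRNA arrays, as were 24136 probes (47.7%). HSPA1L was between -6.37 and -4.30 there and at -3.93 on the 5-aza-dC array. HSPA2 was between -6.74 and -6.34 there and at 0.17, above background, on the 5-aza-dC array. Both were among the 2464 probes (10.2% of those 24136) detected with 5-aza-dC and on no siRNA array. The stretch upstream of HSPA2 is shown because it is the other HSP70 gene with a rise of this size, and it holds 1 CCAAT box, as ATTGG, and neither the heat shock element pair nor TATAAA.
HSPA2 upstream of the start, chr14:64540491-64540740, + strand: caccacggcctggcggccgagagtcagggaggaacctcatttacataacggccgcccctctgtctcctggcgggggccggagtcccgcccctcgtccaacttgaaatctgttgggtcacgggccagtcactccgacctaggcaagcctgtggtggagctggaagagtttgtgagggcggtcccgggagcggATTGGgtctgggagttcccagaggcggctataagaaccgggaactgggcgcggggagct

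HSPA6, an HSP70 gene that is made almost only under stress, was near background on the siRNA arrays. The probe counted for the gene was above background on siCONT replicate 2 (-3.82), on both siUHRF1 arrays (-4.10 and -3.96) and on siUHRF1 + TSA replicate 2 (-3.68), and was not so on siCONT replicate 1 (-4.90), siUHRF1 + TSA replicate 1 (-4.08) or either siCONT + TSA array (-3.96 and -5.12). The groups overlapped and the probe was called in no comparison. A second probe was at -4.89 and -5.29 in siCONT and at -4.47 and -4.10 in siUHRF1. It was at -4.92 and -4.12 in siCONT + TSA and at -3.98 and -4.06 in siUHRF1 + TSA. Against siCONT its change was 0.80 in siUHRF1 (limma, adjusted p = 0.481), not called. In siUHRF1 + TSA it was 1.07 (adjusted p = 0.0431), with a bound of at least 1.23-fold. This second probe entered the fit only through siUHRF1 + TSA, where it is high, so that p-value comes after a choice on the same contrast. The probe designed to another transcript was below background on all 9 arrays, so that the probes of this gene disagree.

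HSPA8, the constitutive HSP70, was not called on the probe counted for the gene, and in the combination it was called on both probes designed to other transcripts. The probe counted was at 4.22 and 4.26 in siCONT, 4.52 and 3.97 in siUHRF1, 4.50 and 4.47 in siCONT + TSA, 4.61 and 4.55 in siUHRF1 + TSA, and 5.12 on the 5-aza-dC array. The siUHRF1 arrays spanned the siCONT arrays, and the change was 0.24 (adjusted p = 0.414) in siCONT + TSA and 0.34 (adjusted p = 0.213) in siUHRF1 + TSA, each against siCONT. A probe of another transcript was at -4.27 on both siCONT arrays, not above background, at -2.82 and -3.50 in siCONT + TSA and at -2.72 and -2.71 in siUHRF1 + TSA. It rose by 1.11 (adjusted p = 0.0349), at least 2.16-fold, in siCONT + TSA and by 1.56 (adjusted p = 0.00667), at least 2.94-fold, in siUHRF1 + TSA against siCONT. This probe entered the fit only through the TSA groups, where it is high, so these p-values come after a choice on the same contrasts. The remaining probe was at -2.97 and -2.89 in siCONT, -1.76 and -2.13 in siCONT + TSA and -1.75 and -1.89 in siUHRF1 + TSA, with changes of 0.98 (adjusted p = 0.0663) and 1.11 (adjusted p = 0.0293). The stretch upstream of HSPA8 is shown because, like that of HSPA6, it holds runs of 3 heat shock units in GAANNTTCNNGAA or TTCNNGAANNTTC.
HSPA8 upstream of the start, chr11:123062137-123062386, - strand: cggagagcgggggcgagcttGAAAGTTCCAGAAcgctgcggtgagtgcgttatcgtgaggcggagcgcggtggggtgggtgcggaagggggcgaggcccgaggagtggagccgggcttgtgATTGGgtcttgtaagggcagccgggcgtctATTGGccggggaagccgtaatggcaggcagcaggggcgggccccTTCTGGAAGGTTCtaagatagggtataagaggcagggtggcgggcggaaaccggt
The gene names most like HSPA8 over the 8 siRNA arrays were PARVA, LOC100132249, SLC39A10, GTF3C3 and MAT2A, with Pearson r from 0.9684 down to 0.964. Of these names 0 were shared with normexp, quantile or spike-in scaling, 1 with capped normexp and 4 with median scaling, so the list is one of this scaling.

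HSPH1, the HSP110 exchange factor, rose with TSA on both of its probes. The probe counted for the gene was at 0.62 and 0.61 in siCONT, 0.57 and 0.67 in siUHRF1, 1.39 and 1.44 in siCONT + TSA, 1.09 and 1.43 in siUHRF1 + TSA, and 2.42 on the 5-aza-dC array. All 4 TSA arrays lay above all 4 mock arrays. The change was 0.80 (SE 0.131, adjusted p = 0.0203) in siCONT + TSA and 0.64 (adjusted p = 0.0183) in siUHRF1 + TSA against siCONT, and the second probe rose by 0.64 (adjusted p = 0.0331) and 0.69 (adjusted p = 0.0142). For depletion under TSA the difference of the probe counted was -0.15 (adjusted p = 0.608). With TSA alone HSPH1 was called in 13 of 20 alternatives, with adjusted p from 0.00514 to 0.131.

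DNAJB1, the main stress-inducible HSP40, was at 1.25 and 1.31 in siCONT, 1.10 and 1.39 in siUHRF1, 1.64 and 1.58 in siCONT + TSA, 1.66 and 1.86 in siUHRF1 + TSA, and 3.18 on the 5-aza-dC array. All 4 TSA arrays lay above all 4 mock arrays. The change was called in siUHRF1 + TSA against siCONT (0.48, SE 0.131, adjusted p = 0.0456) and not in siCONT + TSA against siCONT (0.33, adjusted p = 0.164). The former was called in 9 of 20 alternatives, with adjusted p from 0.0190 to 0.212. The gene names most like it were SNORA57, LOC730183, ZNF771, SUPT5H and MYEOV, with Pearson r from 0.9951 down to 0.9909 over 8 arrays. Of these, 5 were shared with median scaling, 3 with quantile, 2 with normexp and with capped normexp, and 1 with spike-in scaling.

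HSPB1, the small heat shock protein, was at 6.57 and 6.58 in siCONT, 6.40 and 6.63 in siUHRF1, 6.73 and 6.75 in siCONT + TSA, 6.45 and 6.61 in siUHRF1 + TSA, and 7.08 on the 5-aza-dC array. The siUHRF1 + TSA arrays overlapped those of siUHRF1, and the changes were 0.17 (adjusted p = 0.388) in siCONT + TSA and -0.04 (adjusted p = 0.827) in siUHRF1 + TSA against siCONT. A second probe was at 6.22 to 6.70 on the siRNA arrays. The third, whose sequence lies at -66 to -7 from the HSPB1 start in RefSeq, was above background on all 9 arrays, at -0.95 to -0.34.

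Over the set, UHRF1 depletion alone gave 0 of 7 genes and 0 of 13 probes called, where 0.519% of all probes were called higher and 0.038% lower. In the same limma fit 0 genes had an unadjusted p below 0.05 on the probe counted, and the methods' t-test called 0. The second probe of HSPA6 had an unadjusted p of 0.0305 in limma, with a change of 0.80 and an adjusted p of 0.481. The median change of the 7 genes was -0.01. TSA alone gave 2 genes higher and 0 lower, HSPA1B and HSPH1, where 6.5% of all probes were called higher and 3.95% lower, and the median change was 0.24 against 0.07 over all probes. By any probe it was 3 genes, and by probe 4 of 13.

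The combination against siCONT gave 4 of 7 genes higher and 0 lower, namely HSPA1A, HSPA1B, HSPH1 and DNAJB1, where 15% of all probes were called higher and 8.25% lower. By any probe 6 genes were higher, and by probe 8 of 13. Against siCONT + TSA the combination gave 1 gene, HSPA1A, where 2.96% of all probes were called higher and 0.574% lower. These counts include HSPA1A, and by probe also 1 probe of HSPA6 and 1 of HSPA8, which passed the filter only through groups where they are high. Among the 5 genes above background on all 8 siRNA arrays, 3 were called in the combination against siCONT, 2 with TSA alone and 0 against siCONT + TSA. In a fit of only the 20754 probes above background on all 8, 14.7% were called higher in the combination against siCONT (1985 probes lower). The share was 8.46% with TSA alone (1011 lower) and 1.04% against siCONT + TSA (75 lower). These comparisons share the siCONT arrays with each other and with the description of the 5-aza-dC array, except for that against siCONT + TSA. Without either siCONT array fewer members were called in siUHRF1 + TSA against siCONT. Without either siCONT or either siCONT + TSA array fewer were called in siCONT + TSA against siCONT. Each of these fits leaves 1 array in a group, and fewer of all probes were called in them too.

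**Figure D3:**
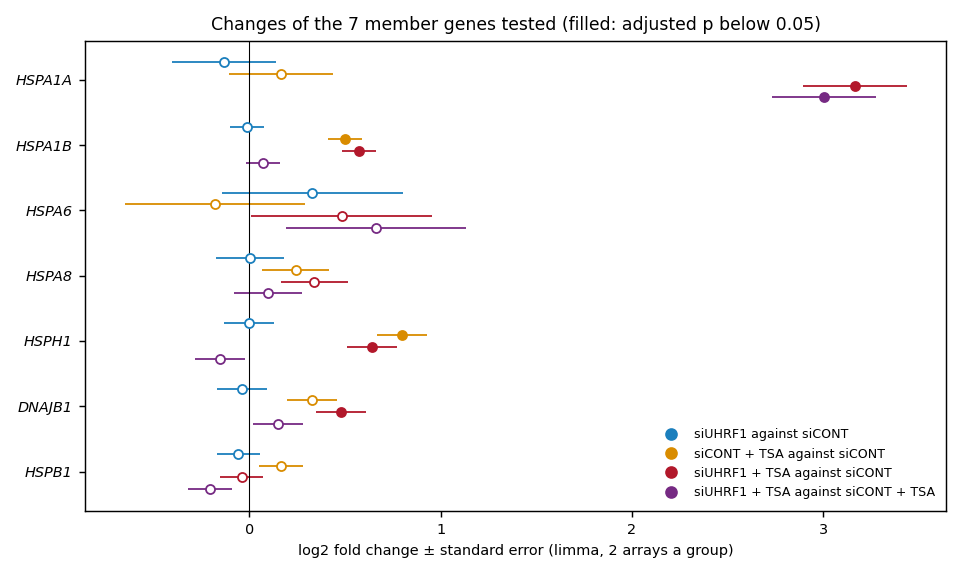
Log2 fold changes of the 7 genes tested (horizontal axis) with their standard errors from limma, 2 arrays a group, 1 colour for each of 4 comparisons and filled points for an adjusted p below 0.05. HSPA1A stands at 3.17 and 3.01 in the comparisons with siUHRF1 + TSA, and all other points of called genes lie at 0.80 or below.

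On the 5-aza-dC array, 5 of the 9 genes and 9 of the 16 probes were over 2-fold above both siCONT arrays and 0 below, where 16.6% of 26744 probes listed were above and 12.5% below. This array chose the set, and nothing is read from the count. HSPA1A stood 11.43 above the mean of siCONT on the log2 scale, at least 655-fold, and had rank 12 by this bound among gene names. HSPA2 stood 6.74 above (at least 22.5-fold), HSPA1B 2.36, HSPH1 1.80, DNAJB1 1.90, HSPA8 0.87 and HSPB1 0.51. HSPA1L, not above background in siCONT, was at least 1.32-fold above, and HSPA6, above background on 1 of the 2 siCONT arrays, stood 1.00 above. The HSPA1A probe gave 10 of 10 spots above background there, with an SD over spots of 0.057 on the log2 scale. Of the 5 leukocyte markers, 5 were above background there, with a log2 sum of 3.09 against 1.79 and 1.70 in siCONT. The fibroblast sum was -0.82 against -1.80 and -1.98, with 2 of 6 above background against 1 and 2, the epithelial sum 5.61 against 5.66 and 5.67, with 7 of 9 against 5 and 4, and the endothelial sum -2.56 against -2.62 and -2.67, with 2 of 3 against 1 and 1. All arrays were of 1 cell line and no cell type is named from these markers. Their part in the values was not tested. How these values depend on the scaling differed by gene. With scaling by the spike-in probes, the median of all probes moved to -1.67, HSPA1A was at least 202.5-fold and HSPA2 at least 6.94-fold above, HSPA1B was 0.66 above, HSPH1 0.10 and DNAJB1 0.21, and HSPA8 (-0.82) and HSPB1 (-1.19) lay below siCONT. With normexp background correction HSPA1A was at least 139.1-fold and HSPA2 at least 5.82-fold above. No direction is read for HSPA1L and HSPA6 under either, since their siCONT arrays were not both above background.

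**Figure D4:**
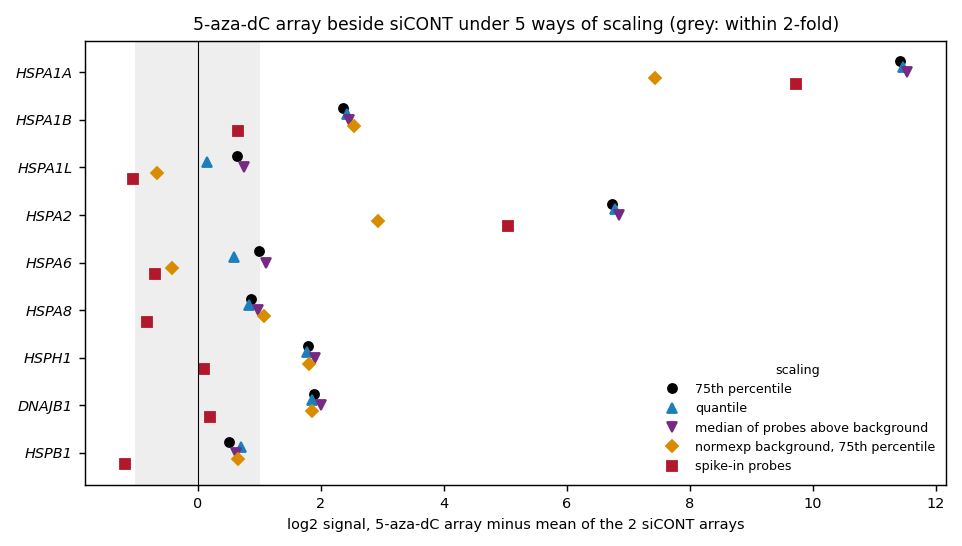
The 5-aza-dC array minus the mean of the 2 siCONT arrays on the log2 scale (horizontal axis) for the 9 genes, with 1 mark for each of 5 ways of scaling and grey for within 2-fold. HSPA1A and HSPA2 stay right of the grey band under all 5, and HSPA8 and HSPB1 fall left of 0 with the spike-in probes. The siCONT arrays of HSPA1A, HSPA1L and HSPA2, and 1 of those of HSPA6, were not above background, so their marks are differences over background signal.

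The genes were taken by name, and heat shock elements lie ahead of many such genes, so the matches below are only a description. RefSeq gave 11 upstream windows of 250 bases for the 9 genes, 3 of them of DNAJB1. The heat shock element pair, on either strand, was in 7 of 11 windows, against 11.6% of 35116 windows of this length, and was in no window of HSPA2 or HSPH1. Runs of 3 units were in the HSPA6 and HSPA8 windows, against 0.441%, and overlap the pairs. The CCAAT box was in 8 windows, against 32%, and TATAAA in the HSPA1A and HSPA1B windows and on the opposite strand in that of HSPA1L, against 3763 of the 35116 windows. HSPA1A and HSPA1L start 259 bases apart and their windows share 241 bases. Their heat shock element pair, CCAAT boxes and TATAAA are the same sites, counted in each window. Over the 250 bases, CpG numbered 12 in HSPA1A, 13 in HSPA1B and 18 in HSPA2, with a median of 11 over all windows. A match gives letters only.

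Other genes of the heat shock pathway were counted by 8 lists of 79 genes, of which 78 were on the array and 70 were tested. UHRF1 depletion alone called 0 of them. TSA alone gave 10 higher and 5 lower and the combination 19 higher and 7 lower, each against siCONT, with a median change of 0.17 in both. Over all probes, 6.5% were called higher and 3.95% lower with TSA alone, with a median of 0.07, and 15% and 8.25% in the combination, with a median of 0.05. Against siCONT + TSA the combination gave 1 higher, HSPB3, a small heat shock protein of muscle, at 3.31 (at least 2.45-fold, adjusted p = 0.00161). HSPB3 and HSPB8 were above background only on the siUHRF1 + TSA arrays among the siRNA arrays, so they entered the fit through the group where they are high, as did CRYAB, a small heat shock protein gene of the same list.

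By list, the 5 other small heat shock proteins tested gave 3 higher in the combination: HSPB3 (at least 2.65-fold), HSPB8 (at least 2.26-fold) and the alpha-crystallin gene CRYAB (at least 2.16-fold). Of 13 other HSP40 genes tested, TSA alone called 3 higher, DNAJA1 (0.59), DNAJA2 (0.55) and DNAJB13 (1.20, at least 2.30-fold), and DNAJA3 lower (-0.38), while the combination called 4 higher and 2 lower. Of 8 other HSP70 genes tested, HSPA4 rose by 0.64 with TSA and by 0.60 with the combination, whereas the endoplasmic reticulum genes HSPA13 (-0.81 and -0.83) and HYOU1 (-0.91 and -0.81) fell. Of the 10 chaperonin genes tested, TSA called HSPE1 (0.60), CCT2 (0.60) and CCT4 (0.54), and the combination 4. Of 4 HSP90 genes, HSP90AA1 rose by 0.47 with the combination, of 17 co-chaperones STUB1 (0.51), STIP1 (0.46) and AHSA1 (0.40) did, and of 3 heat shock factors 0 were called. Of 10 other genes of proteotoxic stress, SERPINH1 (0.72), VCP (0.58) and HMOX1 (0.55) rose and GADD45A (-1.45), ATF3 (-1.54) and DDIT3 (-2.46) fell in the combination. With TSA alone, the lists of small heat shock proteins, HSP90 genes, co-chaperones and heat shock factors had 0 called, and that of proteotoxic stress 3 higher and 2 lower. Beside siCONT, the 5-aza-dC array had 16 of 73 genes listed over 2-fold above and 4 below, beside 16.6% above and 12.5% below of all probes, and with spike-in scaling 2 above and 47 below, where 6.19% and 72.7% of all probes were. The 4 below were TRAP1 (-1.58), HSF4 (-1.24), GADD45A (-1.38) and DDIT3 (-3.03).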

How the data were processed

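Total RNA of RKO cells was labelled with Cy3 and hybridized to 9 Agilent 1-colour whole-genome expression arrays (SurePrint G3, version v2). The authors extracted the deposited spot intensities with Agilent Feature Extraction 10.7, which subtracts background and gives dim spots a surrogate value. These intensities are linear and not scaled between arrays. The series' value table repeats them to within a relative 0.00497. The normalization behind the study's own analysis is not given in the sources used here. Precision is limited by the number of arrays.

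Control and outlier spots were left out, and log2 signals were shifted by the 75th percentile of each array and averaged over the spots of a probe. limma 3.58.1 in R 4.3.3 (lmFit, eBayes) took the 4 siRNA groups, 8 arrays, over 23703 probes, with Benjamini-Hochberg adjustment. The script was tested on simulated data. Sequences were read in Python 3.11.15 from RefSeq tables. The genes named are the 9 members, UHRF1, at most the 3 called genes of largest change per list, direction and comparison, and the 5 gene names most correlated with HSPA1A, HSPA8 and DNAJB1. Members, lists and tests were chosen with earlier results of these data known. The alternatives were normexp (offset 50), quantile, median and spike-in scaling, 2 other filters, outlier spots kept, a replicate block, the value table, the arrays compared alone, each array left out, a trended robust prior, an unadjusted p, the methods' t-test, and any probe of a gene. Capped normexp, leaving out siCONT arrays beside 5-aza-dC, and the scalings of the pathway lists and of the HSPA2 bound there were added after seeing the data.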

Additional observations from a re-analysis of the deposited data

Results flagged for a closer look

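For 1 member, HSPA1A, the difference between depleting UHRF1 in TSA cells and in mock cells was called, at 3.14 on the log2 scale (limma, adjusted p = 0.0434). HSPA1A passed the filter only through siUHRF1 + TSA (-3.68 and -2.78), and siCONT, siUHRF1 and siCONT + TSA were not above background, so the difference is not measured there and has no bound. With no filter the adjusted p was 0.104, and HSPA1A was called in 7 of 18 alternatives, with adjusted p from 0.00534 to 0.976.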

How the results depend on the processing

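UHRF1 depletion alone gave 0 member genes called under every alternative run. For siCONT + TSA against siCONT the number called was 2, and it was 0 with no filter, 0 with normexp, 0 with spike-in scaling, 1 with quantile normalization, 5 with only the arrays compared, 5 with the methods' t-test unadjusted and 4 after adjustment. Of all 23703 probes 2476 were called in either direction, and 417 with normexp, 877 with spike-in scaling and 2563 with quantile normalization. This was 668 of 50545 with no filter and 9921 of 22488 with only the arrays compared. With the t-test 9811 probes were called unadjusted and 4345 after adjustment. For siUHRF1 + TSA against siCONT the number of members called was 4, and 2 with no filter, 0 with normexp, 2 with only the arrays compared, 1 with spike-in scaling and 0 with the adjusted t-test. Of all 23703 probes 5509 were called, and 1694 with normexp, 3366 with spike-in scaling and 246 with the adjusted t-test. This was 3676 of 50545 with no filter and 5057 of 23261 with only the arrays compared. Against siCONT + TSA the number of members called was 1, and 0 with normexp, with capped normexp, with probes above background on all 8 arrays, where HSPA1A is not tested, and with the adjusted t-test. Of all 23703 probes 838 were called, and 92 with normexp, 661 with capped normexp and 0 with the adjusted t-test. With the filter on all 8 arrays this was 290 of 20754. For the difference between the effects the number of members called was 1, and 0 with no filter, normexp, capped normexp, the filter on all 8 arrays, quantile normalization and the trended robust prior. Of all 23703 probes 90 were called, and 6 with normexp, 21 with capped normexp, 81 with quantile normalization and 1 with the trended robust prior. This was 78 of 50545 with no filter and 0 of 20754 with the filter on all 8 arrays. Leaving out each array in turn leaves 1 array in a group. The number of members called then moved in each of these comparisons but that against siCONT + TSA, and the number of all probes called moved in each. For the 5-aza-dC array the number above siCONT was 5, 2 with spike-in scaling, where HSPB1 was at -1.19 and HSPA1L, whose siCONT arrays were not above background, at -1.04, and 5 to 6 without 1 siCONT array. Beyond the fewer probes or arrays of some alternatives, the cause was not tested.

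The replicate block gave 0, 2, 4, 1 and 1 members and changed no call. Same-numbered arrays deviated together in siUHRF1 and siUHRF1 + TSA (r = 0.466), which share an siRNA, and r was -0.05 to 0.08 elsewhere. A slide block could not be fitted, because the siRNA arrays share 1 slide and 1 scan. With normexp, the fitted background of siCONT + TSA replicate 2 was -100.7 against 2.8 to 16.44 on the other arrays, and 5.256 with capping. Spike-in scaling moved the median of all probes in siCONT + TSA from 0.07 to -0.12. Over all probes, those called higher and lower in siCONT + TSA were 1540 and 936, and 301 and 576 with spike-in scaling. In siUHRF1 + TSA against siCONT they were 3553 and 1956, 1686 and 1680 with spike-in scaling, and 3098 and 2764 with quantile normalization. Over the alternatives, probes called higher numbered 81 to 6038 in siCONT + TSA, 185 to 5487 in siUHRF1 + TSA against siCONT and 0 to 2431 against siCONT + TSA. HSPA1B, HSPH1 and DNAJB1 stayed above 0 with TSA in all alternatives. Signal over background limits HSPA1A, HSPA1L, HSPA2 and HSPA6 to bounds in most groups.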
